A study of Mus musculus with 2 samples.

Results

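The Myc and Max network was described in limb tissue of mouse embryos through 10 of its genes: Myc, Mycn, Mycl, Max, Mga, Mnt, Mxi1, Mxd3, Mxd4 and Mlx. They were chosen by name, and all 10 were found by their Ensembl identifiers among 43346 Ensembl genes quantified. Total RNA longer than 200 nt came from limbs of strain B6NCrl at embryonic day 10.5, as a single group with no treatment or engineered allele. It held 2 biological replicates, each a pool of male and female embryos, with 69 embryos in replicate 1 and 51 in replicate 2, and 10 ng of RNA entered each library. The labels name no limb side and do not separate forelimb from hindlimb. Expected counts, the estimated reads per gene, totalled 40509328 and 43983028, and spike-in RNAs took 3.89% and 3.45% of them. All 9 limb mesenchyme markers examined, such as Msx1, stood at 1 TPM or more in both libraries, where TPM is a level normalised by transcript length and by library.

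Myc proteins are transcription factors with a basic helix-loop-helix and leucine zipper. They bind DNA at E-box sequences only after pairing with Max, and such pairs raise the expression of genes for ribosome production, metabolism and cell division. Max also pairs with Mnt, Mga and the Mxd proteins, among them Mxi1, which bind the same sites and recruit corepressors. Mlx is a Max-like partner of the glucose-sensing proteins Mlxip and Mlxipl and of some repressors. In the limb bud, Mycn is known for its need in the growth of the undifferentiated mesenchyme.

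The E-box is the sequence through which these proteins act, so promoters of the network's own genes were searched for it. Promoters are RefSeq windows on GRCm38.p6, from 250 bases before to 50 bases after a RefSeq transcription start, which need not be the GENCODE start. The table held 11 windows for 9 of the 10 genes, Myc being the gene without an entry. The letters CACGTG, which read the same on both strands, were present in 4 of these 11 windows, against 7.15% of all 32851 windows. They belonged to 4 of the 9 genes, Max, Mnt, Mlx and Mxd4. The sites are shown on the strand of each gene, with the E-box in capitals.
Max, chr12:76962234-76962263, minus strand: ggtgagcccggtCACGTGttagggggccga
Mnt, chr11:74830789-74830818, plus strand: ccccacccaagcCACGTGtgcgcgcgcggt
Mlx, chr11:101087238-101087267, plus strand: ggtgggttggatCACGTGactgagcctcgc
Mxd4, chr5:34187912-34187941, minus strand: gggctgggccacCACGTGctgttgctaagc
The E-box began 3 bases before the start of Max and spanned it, 40 bases before that of Mlx, 123 before that of Mnt and 219 before that of Mxd4.

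Mycn and Mxd3 are known as genes that E2F cell cycle factors act on, so letters of E2F sites were searched on both strands too. TTTGGCGC occurred in the Mycn window at 2 places, 183 and 168 bases before the start, and in 0.514% of all windows. TTCCCGC, in its reverse form GCGGGAA, occurred in the Mxd3 window 136 bases before the start, and in 4.60% of all windows. The motif is in capitals. These matches describe the letters and do not show binding.
Mycn, chr12:12942001-12942030, minus strand: agcaaatggctTTTGGCGCgaaaggctttg
Mycn, chr12:12941986-12942015, minus strand: gcgcgaaaggcTTTGGCGCctcccctgatt
Mxd3, chr13:55329849-55329878, minus strand: gttcagcctggGCGGGAAgaggcgggctgg

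All 10 genes were expressed, taken as 1 TPM or more in both libraries, as were 31.1% of all Ensembl genes and 55.2% of protein-coding genes. Their mean levels ran from 4.41 to 165 TPM with a median of 20.3, beside a median of 21.3 TPM for expressed protein-coding genes. In bulk tissue a lower level can come from fewer cells of a type or from less RNA per cell, and these cannot be told apart. Coordinates below are from GENCODE M21 on GRCm38, the assembly of the tables.

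**Figure D1:**
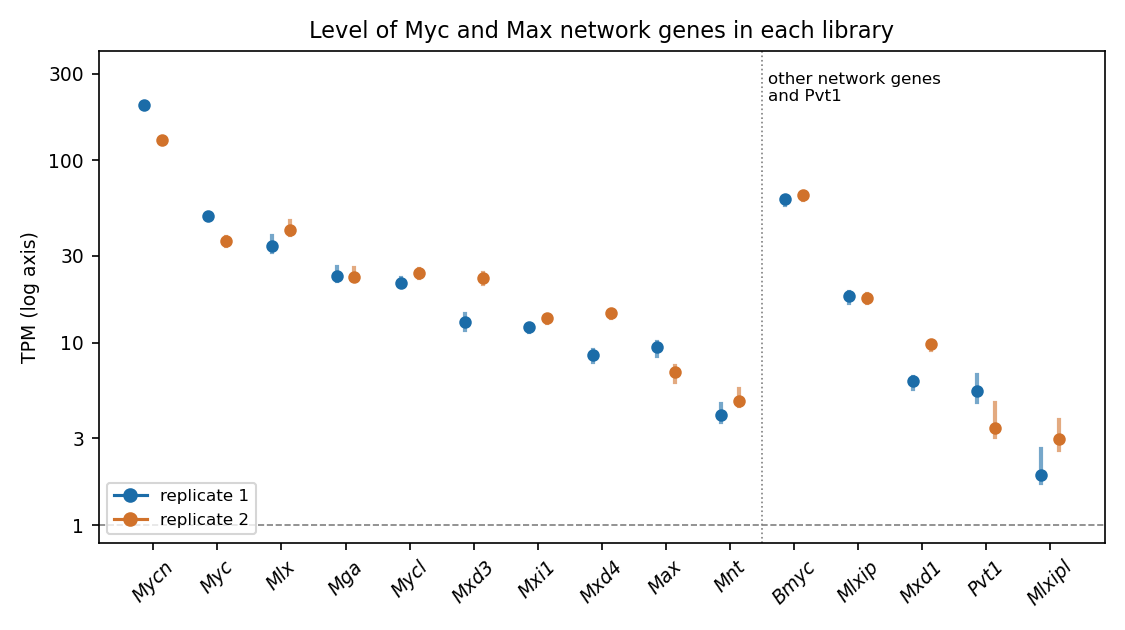
TPM (log axis) of the 10 genes, ordered by mean level, and of other network genes and Pvt1 to the right of the dotted line, in replicate 1 (blue) and replicate 2 (orange). Vertical bars are the interval bounds of the deposited tables and the dashed line marks 1 TPM. Mycn stands above all others in both libraries, and Mnt is the lowest of the 10.

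Among the activators, Mycn led by a wide margin. Mycn (ENSMUSG00000037169.10, chromosome 12, 12936093 to 12941914) was at 201 TPM in replicate 1 and 129 in replicate 2, with 13207 and 8828 counts. Its mean of 165 ± 51.1 TPM (SD, n = 2, as for all values with ±) exceeded that of 91.8% of expressed protein-coding genes. Myc (ENSMUSG00000022346.10, chromosome 15, 61985391 to 61990374), which drives growth in many dividing tissues, was at 49.5 and 36.4 TPM. Mycl (ENSMUSG00000028654.9, chromosome 4, 122995652 to 123002485), the least studied of the family, was at 21.3 and 24.0 TPM. Mycn and Myc were both higher in replicate 1, whereas Mycl was slightly higher in replicate 2. Mycn exceeded Myc by 1.93 ± 0.14 on the log2 scale, a 3.80-fold ratio, and held 74.0% and 68.1% of the summed TPM of the family. Myc held 18.2% and 19.2%, and Mycl 7.83% and 12.7%.

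Max, the partner that every Myc protein needs, stood far below them at the RNA level. Max (ENSMUSG00000059436.8, chromosome 12, 76937269 to 76962201) was at 9.42 TPM in replicate 1 and 6.88 in replicate 2, resting on 473 and 360 counts. Only 27.1% of expressed protein-coding genes had a lower mean. The summed TPM of Myc, Mycn and Mycl was 28.9 times that of Max in replicate 1 and 27.5 times in replicate 2. These are RNA levels and say nothing of protein. The annotation behind the tables held 2 transcripts of Max, while GENCODE M21 lists 7, and reads of transcripts outside the older models were not analysed here. Mlx (ENSMUSG00000017801.11, chromosome 11, 101087277 to 101092207), the partner in the parallel branch, was at 34.1 and 41.8 TPM, above Max in both libraries. Its end overlaps Psmc3ip on the opposite strand by 385 bases, a gene at 60.9 and 62.1 TPM, and its part in the level of Mlx was not tested.

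Repressors of the network lay in the middle and at the bottom of the order. Mxd3 (ENSMUSG00000021485.9, chromosome 13, 55325168 to 55329823), known for expression in dividing cells, was at 13.0 TPM in replicate 1 and 22.8 in replicate 2. Mxd4 (ENSMUSG00000037235.9, chromosome 5, 34173883 to 34187720), linked to cells leaving the cycle, was at 8.53 and 14.7 TPM. Both stood higher in replicate 2. Mxi1 (ENSMUSG00000025025.9, chromosome 19, 53310518 to 53375810) was nearly level between the libraries, at 12.3 and 13.7 TPM. Mnt (ENSMUSG00000000282.8, chromosome 11, 74830920 to 74845725), a broadly expressed Max partner, was the lowest of the 10 at 4.00 and 4.81 TPM, from 479 and 600 counts.

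Mga (ENSMUSG00000033943.11, chromosome 2, 119897228 to 119969581), a large Max partner that also carries a T-box domain and belongs to a variant Polycomb complex, was at 23.2 and 22.9 TPM. Its counts, 3998 and 4368, were the second highest of the 10, over the longest effective length, 6463 and 6875 bases. Transcripts annotated as protein-coding held 9.27 and 9.97 TPM of Mga, and the other 60.1% and 56.4% of its TPM fell on short models such as retained introns. The place of Mga in the order therefore depends on whether those models are counted.

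By mean TPM the order was Mycn, Myc, Mlx, Mga, Mycl, Mxd3, Mxi1, Mxd4, Max and Mnt. A pair was taken to differ where one gene's TPM interval lay wholly above that of the other in each library, which held for 38 of 45 pairs. Neighbours in the order that differed were Mycn above Myc, Mlx above Mga (log2 ratio 0.71 ± 0.22) and Max above Mnt (0.88 ± 0.51). The other 6 neighbouring pairs did not differ beyond their intervals in both libraries, and 4 of the 9 ratios changed sign between libraries. Myc was above Mlx in replicate 1 (log2 ratio 0.54) and below it in replicate 2 (-0.20). Counting only transcripts annotated as protein-coding, Mlx was at 26.2 and 32.4 TPM, below Myc in both libraries. Mxd4 was below Max in replicate 1 (-0.14) and above it in replicate 2 (1.09). The ratios of Mga to Mycl, 0.12 and -0.07, and of Mxi1 to Mxd4, 0.52 and -0.10, were the other such cases.

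Against the repressors Mnt, Mxi1, Mxd3 and Mxd4, the balance differed between the pools. The Myc family summed to 272 TPM and the 4 repressors to 37.8 in replicate 1, a 7.21-fold ratio. In replicate 2 the sums were 189 and 55.9 TPM, a 3.39-fold ratio. On the log2 scale this ratio was 2.85 and 1.76, with a mean of 2.30 ± 0.77, or 1.56 if Mga and Mxd1 are counted among the repressors. The ratio of the Myc sum to Max was steady by comparison, at 4.85 and 4.78 on the same scale. The repressor sum was 4.01 times Max in replicate 1 and 8.13 times in replicate 2, with repressors higher and Max lower in replicate 2.

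Between the libraries, 5 of the 10 genes differed by at least 1.5-fold after TMM scaling, and none by the 2-fold set for a call under any of 6 scalings tried. Differences are log2 ratios of counts, replicate 2 minus replicate 1, after TMM scaling over all Ensembl genes, with 95% exact binomial intervals that cover counting error only. Each side is a single library, so there is no test, and pool, library and any batch cannot be told apart. All 10 genes had a mean count of at least 10, as had 16878 genes in all, of which 4.64% were 2-fold higher, 1.78% 2-fold lower and 6.42% either. At 1.5-fold, 2 genes were higher, against 10.5% of all genes, and 3 were lower, against 5.01%. Mxd3 and Mxd4 stayed past 1.5-fold under all 6 scalings. Of all genes, 13.3% were so high with deposited TPM and 19.8% with spike-in scaling, the latter near the 20% of the 10 genes. Myc and Max, both at 1.51-fold, fell short with deposited TPM, which left Mycn as the 1 lower gene (3.05% of all genes). With spike-in scaling 0 of the 10 were 1.5-fold lower (2.55% of all genes).

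**Figure D2:**
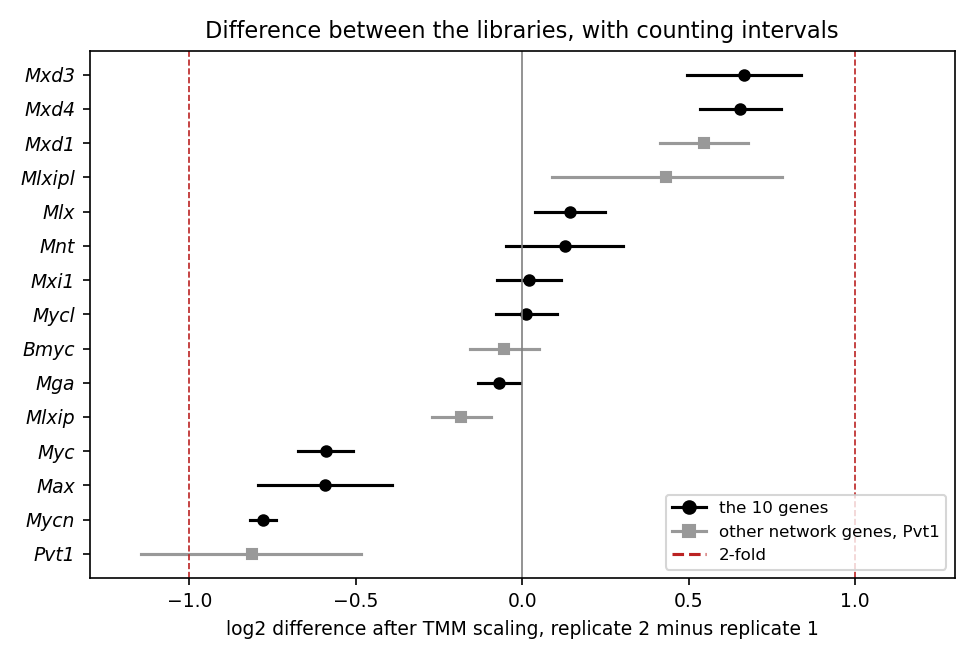
Log2 difference in counts after TMM scaling, replicate 2 minus replicate 1, of the 10 genes (black circles) and of other network genes and Pvt1 (grey squares). Bars are 95% counting intervals and dashed lines mark 2-fold. Mycn, Max and Myc lie together below -0.5, and Mxd3 and Mxd4 above 0.5.

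Mycn, Myc and Max were lower in replicate 2. Mycn went from 348 CPM (counts per library size after scaling) to 203, a log2 difference of -0.78 (-0.82 to -0.74), and 10.1% of all genes differed by as much in either direction. Among 1683 genes within 2-fold of its mean TPM, only 3, itself included, lay as low. Myc went from 71.0 to 47.1 CPM, a difference of -0.59 (-0.67 to -0.51), and 38 of 4068 genes of like level lay as low. Max went from 12.5 to 8.27 CPM, a difference of -0.59 (-0.79 to -0.39), and 98 of 3710 genes of like level lay as low. Under those scalings these 3 genes stayed below 0, between -0.53 and -0.79 for Mycn and between -0.34 and -0.60 for Myc and Max.

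The repressors Mxd3 and Mxd4 were higher in replicate 2. Mxd3 went from 11.4 to 18.1 CPM, a difference of 0.67 (0.50 to 0.84), and 86 of 4358 genes of like level lay as high. Mxd4 went from 22.4 to 35.3 CPM, a difference of 0.66 (0.53 to 0.78), and 137 of 4043 genes of like level lay as high. Across the scalings the differences were 0.66 to 0.92 for Mxd3 and 0.65 to 0.91 for Mxd4. The end of Mxd3 overlaps Prelid1 on the opposite strand by 105 bases. Prelid1 was at 528 TPM in replicate 1 and 473 in replicate 2, and its part in the level of Mxd3 was not tested.

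The other 5 genes lay closer to 0. Mlx was at 0.14 (0.04 to 0.25) and Mga at -0.07 (-0.13 to -0.01), while the intervals of Mnt (0.13), Mxi1 (0.02) and Mycl (0.01) held equality. The counting interval excluded equality for 7 of the 10, against 53.3% of all genes, with 3 higher, against 27.1%, and 4 lower, against 26.2%. The sign of Mga depended on scaling, since it was at 0.18 with spike-in scaling. That scaling moved the median of all genes to 0.27 and deposited TPM moved it to 0.15, against 0.01 with TMM.

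**Figure D3:**
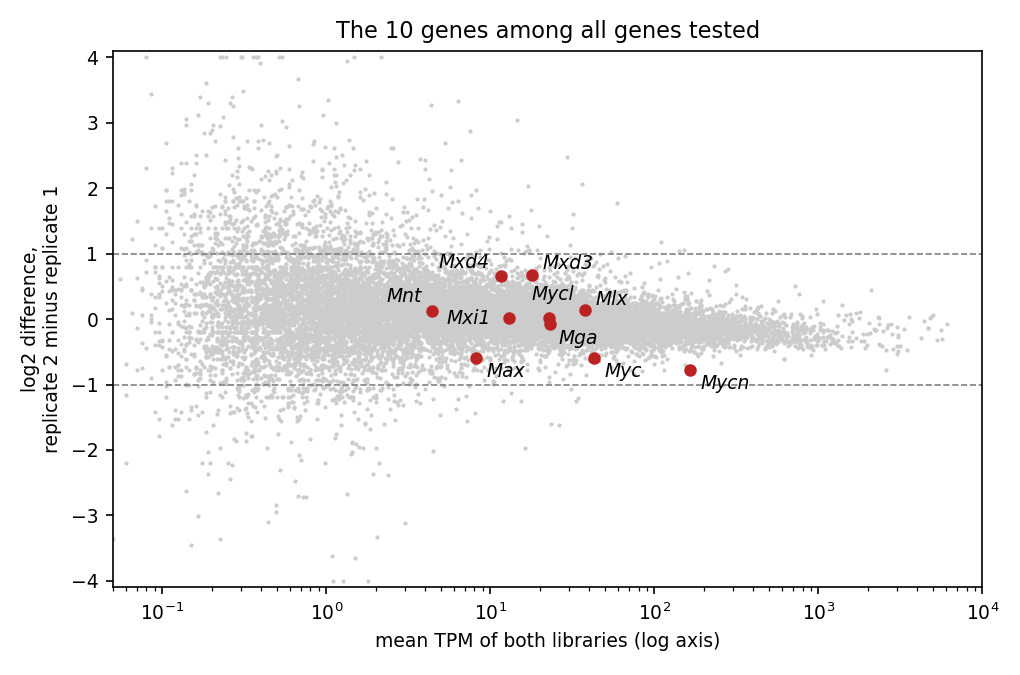
Log2 difference between the libraries against mean TPM (log axis) for genes that average 10 or more counts (grey) and the 10 genes (red). Values beyond 4 in size are drawn at 4, genes with no count in a library are left out, and dashed lines mark 2-fold. The grey cloud tilts downward at high levels, and Mycn lies near its lower edge at that level.

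The differences of all genes leaned with their level. Genes at 1 to 10 TPM had a median of 0.11, those at 30 to 100 TPM -0.04, those at 100 to 300 TPM -0.12, and those at 300 TPM or more -0.19. Markers of tissue types moved as well. The 9 limb mesenchyme markers had a median of -0.01 and summed levels of 915 and 1006 TPM. Among them, in examples chosen after their values were seen, Tbx4, a hindlimb gene, was at 19.7 TPM in replicate 1 and 41.1 in replicate 2 (0.94), Tbx5, a forelimb gene, at 28.8 and 26.4 (-0.26), and Hoxd10 at 56.8 and 42.9 (-0.54). Of 6 cartilage markers measured, 6 were higher in replicate 2, with a median difference of 1.94, or 1.24 with deposited TPM. Acan, 1 of the 6, rested on 5 and 37 counts. The list of 7 genes, 4 of them expressed, summed to 170 TPM against 401, and Matn1 had no TPM in replicate 1. Of 5 muscle precursor markers, 3 were higher, Myf5 (0.71), Myog (2.87) and Myod1 (3.33), while Pax3 (-0.26) and Lbx1 (-0.82) were lower. The 5 summed to 25.6 and 50.7 TPM. Of 7 erythroid markers, 7 were lower, with a median of -0.54 and summed levels of 11740 and 9560 TPM. Of 7 surface ectoderm markers 6 were lower, with a median of -0.28, while Krt14 went from 6.69 to 27.0 TPM (2.03). Among all genes 48.1% were lower. The 5 proliferation markers had a median of -0.12, with Cdk1 at -0.19 and Mki67, present in dividing cells, at 0.18. With spike-in scaling 6 of 7 erythroid, 4 of 7 ectoderm and 0 of 5 proliferation markers were lower, against 17.5% of all genes. Endothelial markers summed to 158 and 168 TPM and macrophage markers to 20.2 and 27.5, with medians of 0.01 and 0.52. Neural tube and neuron markers were low in both, with 2 of 8 expressed and summed levels of 9.05 and 8.74 TPM. The part of these tissues, or of the mix of limbs, in the differences of Mycn, Myc, Max, Mxd3 and Mxd4 was not tested.

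Transcript estimates showed which forms of each gene were present. The same transcript held the largest percent of the gene's TPM in both libraries for 9 of the 10 genes, beside 91.6% of expressed genes with several transcripts, and for 8 once identical models of Myc were summed. Transcript names follow GENCODE M21, matched by identifier without version, and some models changed between releases.

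**Figure D4:**
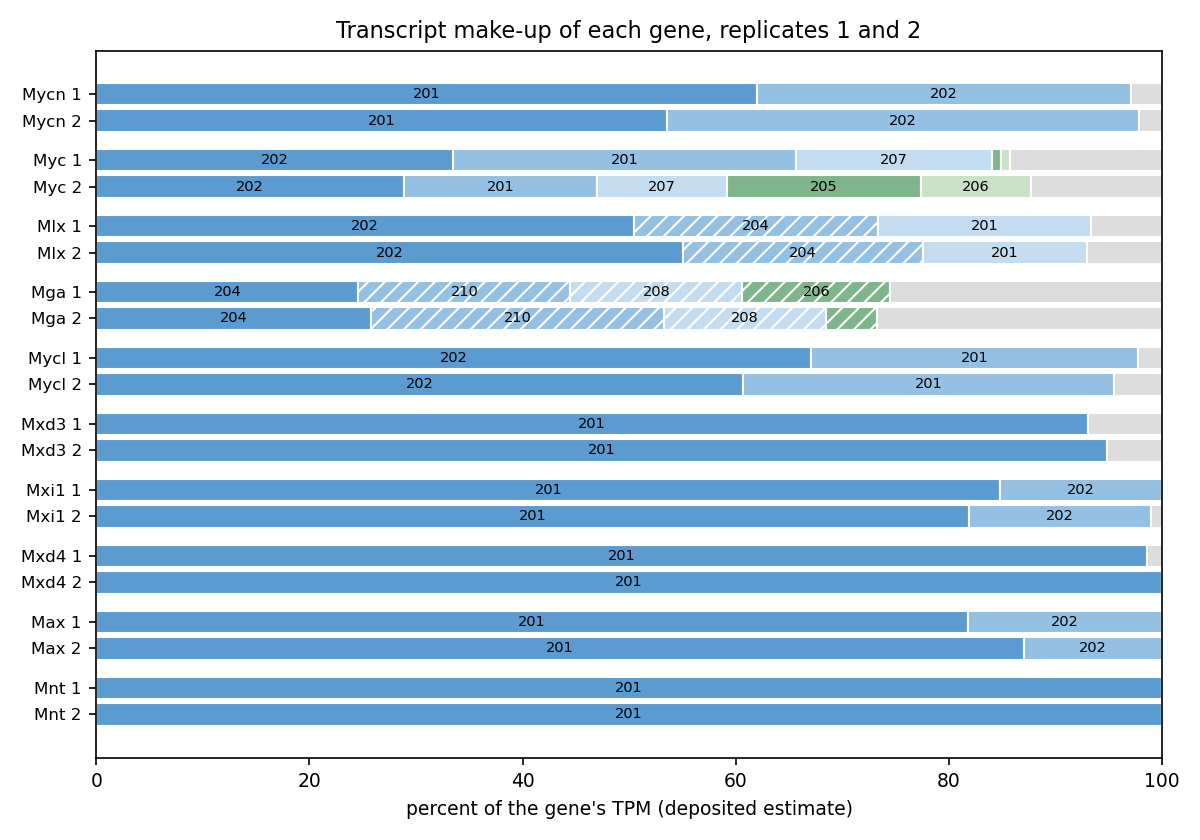
Percent of each gene's TPM by transcript in replicates 1 and 2, with genes ordered by level. Coloured segments are transcripts that hold 10% or more in either library, hatched where not annotated as protein-coding, numbers are the ends of transcript names, and grey is the rest. Mnt, Mxd4 and Mxd3 rest on a single form, whereas Myc and Mga are spread over several.

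Max was mostly the form without its short second exon. Max-201 held 81.8% of Max in replicate 1 and 87.0% in replicate 2, at 7.71 and 5.99 TPM. Max-202 held the remaining 18.2% and 13.0%, at 1.71 and 0.89 TPM, from 87.0 and 47.3 estimated counts. Its TPM intervals, 0.795 to 2.93 and 0.265 to 2.04, overlapped between the libraries. The forms differ by a coding exon of 27 bases, or 9 codons, which lies ahead of the DNA-binding domain and separates the long and short Max proteins. It is exon 2 of Max-202, on the minus strand, and is absent from Max-201. The exon is shown because reads across it decide the split.
Max-202 exon 2, chr12:76961263-76961289: gaagagcaaccgaggtttcaatctgcg

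Mycn was split between a pair of coding transcripts with different starts. Mycn-201, which begins at 12941914 on the minus strand, went from 125 TPM (interval 114 to 130) in replicate 1 to 69.1 (61.0 to 75.5) in replicate 2. Mycn-202, which begins downstream at 12940616, went from 70.5 (60.8 to 77.1) to 57.1 (47.8 to 63.1). The intervals of Mycn-201 did not overlap between libraries and those of Mycn-202 did. Intervals also stood apart for the processed transcript Mycn-203, higher in replicate 1, and for Mnt-201, Mxd3-201 and Mxd4-201, higher in replicate 2. How often this held over all transcripts is not given here. Mycn-201 held 62.0% and 53.6% of the gene, and Mycn-202 35.1% and 44.3%. A test of the change in shares was not made, since the tables give no counts of reads that belong to 1 form alone.

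Myc could not be resolved to single forms. Myc-201 and Myc-205 have identical sequences of 2338 bases, so the division of reads between them is arbitrary. The tables gave Myc-205 0.850% of Myc in replicate 1 and 18.2% in replicate 2, which is such a case. Together they held 33.1% and 36.3% and Myc-202 held 33.5% and 28.8%, so the leading sequence was not the same in both libraries. Myc-207 held 18.4% and 12.2%, and Myc-206 0.880% and 10.4%. Mycl-202 held 67.1% and 60.7% of Mycl, and Mycl-201, whose start lies downstream, 30.7% and 34.8%.

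Mxi1 was read mainly from its upstream start. Gm10197, on the opposite strand, overlaps Mxi1 by 201 bases and was at 6.85 and 20.0 TPM. Its part in the level of Mxi1 was not tested. Mxi1-201, which begins at 53310518, held 84.9% and 81.9%, and Mxi1-202, which begins at 53329458, held 15.2% and 17.1%. The length of Mxi1-201 was 5156 bases in the tables and is 2627 in GENCODE M21. Mnt-201 held all of Mnt, Mxd4-201 98.6% and 100%, and Mxd3-201 93.1% and 94.8%. Mlx-202 led Mlx with 50.5% and 55.1%, ahead of Mlx-201 with 20.0% and 15.4%, and a processed transcript without a coding label, Mlx-204, took 22.9% and 22.5%. In Mga, too, the leading form differed between libraries: the coding Mga-204 was at 24.6% and 25.8%, and the retained-intron form Mga-210 at 19.9% and 27.5%. The processed transcripts Mga-208 and Mga-206 held 16.2% and 15.2%, and 13.9% and 4.73%. The TPM intervals of all 4 forms overlapped between libraries.

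Other genes of the network filled in the picture. Bmyc, a relative of Myc that lacks the DNA-binding end, was at 61.3 and 65.1 TPM, above Myc itself. Mxd1, the repressor linked to terminal differentiation, was at 6.14 and 9.86 TPM, a log2 difference of 0.55 (0.41 to 0.68), the direction of Mxd3 and Mxd4. Among partners of Mlx, Mlxip was at 18.1 and 17.6 TPM and Mlxipl at 1.89 and 2.98. Pvt1, the long noncoding RNA beside Myc, was at 5.45 and 3.39 TPM and differed by -0.81 (-1.15 to -0.48). Mycs had no counts, and a count of 0 allows up to 3 counts, or 0.0496 and 0.0476 TPM.

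All 52 listed cofactors were expressed, beside 55.2% of protein-coding genes. The corepressor subunits that Mxd proteins and Mnt recruit, 16 genes of the Sin3 complexes and related factors, had a median of 62.2 TPM, led by the histone-binding Rbbp4 (480 ± 18.1), Rbbp7 (358 ± 16.8) and the deacetylase Hdac1 (270 ± 18.2), with Ing2 lowest at 10.6. Myc coactivators, 15 of 15 expressed, had a median of 73.1 TPM, led by Actl6a (240 ± 9.35) and the ATPases Ruvbl1 (206 ± 13.0) and Ruvbl2 (195 ± 29.9), with the acetyltransferase Kat5 lowest at 29.1. Regulators of Myc protein turnover, 12 of 12 expressed, had a median of 62.9 TPM. The chaperone-linked ligase Stub1 (252 ± 6.46) and the mitotic kinases Plk1 (213 ± 8.29) and Aurka (193 ± 8.44) led them, and the ligase subunit Fbxw7 was lowest at 6.74. Partners of Mga in its Polycomb complex, 9 of 9 expressed, had a median of 49.9 TPM, from Cbx3 (537 ± 16.6), Tfdp1 (165 ± 7.52) and Yaf2 (97.9 ± 12.8) to Ring1 at 11.2. The median of expressed protein-coding genes was 21.3 TPM. None of these 4 lists had a gene 2-fold different between libraries, and their median log2 differences were -0.03, -0.17, -0.09 and -0.12, beside 0.01 over all genes. Relative to the median of all genes these medians were -0.04, -0.18, -0.11 and -0.13, which scaling by library cannot change. With deposited TPM they were -0.06, -0.15, -0.15 and -0.13. Genes below 0 numbered 10 of 16, 13 of 15, 11 of 12 and 6 of 9, but with spike-in scaling 1, 5, 1 and 3, and with deposited TPM 3, 8, 7 and 4. The share of all genes below 0 moved likewise, from 48.1% to 17.5% with spike-ins and to 29.998% with deposited TPM.

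Known Myc targets in growth pathways lay lower in replicate 2. All 17 ribosome biogenesis targets were below 0, with a median of -0.34, beside the 48.1% of all genes. By level, genes below 0 made up 59.6% at 30 to 100 TPM, 78.6% at 100 to 300 and 87.0% at 300 or more. The most abundant were the nucleolar proteins Npm1 (1372 ± 183 TPM, log2 difference -0.44), Ncl (495 ± 47.7, -0.34) and Nop56 (391 ± 34.4, -0.25), and Polr1a, of RNA polymerase I, was the lowest at 26.5 TPM (-0.32). Of 17 metabolic targets, 16 were below 0, with a median of -0.40. The glycolytic enzymes Eno1 (3029 ± 585 TPM) and Ldha (2573 ± 421) differed by -0.54 and -0.48, the purine enzyme Paics (430 ± 2.25) by -0.15 and Prps2, the lowest of the list at 15.5 TPM, by -0.59. None of the 34 reached 2-fold.

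The other target groups moved less or the other way. Of 13 cell cycle targets, 11 were below 0 with a median of -0.13, among them the kinase Cdk4 (2626 ± 0.728 TPM, -0.13), Cks1b (762 ± 11.4, -0.17) and Mcm7 (328 ± 7.45, -0.18), while E2f2, the lowest at 5.75 TPM, was at 0.07. Of 6 genes known to be repressed by Myc, 5 were measured between libraries and 4 were higher, with a median of 0.26. The cell cycle inhibitor Cdkn1c (281 ± 121 TPM) was at 0.77 (0.73 to 0.80), Cdkn1a (25.1 ± 4.72) at 0.26 (0.10 to 0.42) and Gadd45a (15.0 ± 0.926) at -0.13 (-0.33 to 0.07). Cdkn2b, the lowest at 0.210 TPM, had too few counts. None reached 2-fold with TMM, while Cdkn1c did with spike-in scaling. With spike-in scaling the medians were -0.08 for ribosome biogenesis, -0.14 for metabolism, 0.12 for cell cycle and 0.51 for repressed genes, against 0.27 for all genes. Genes below 0 then numbered 12 of 17, 14 of 17, 1 of 13 and 0 of 5, and with deposited TPM 16, 16, 7 and 0. The share of all genes below 0 was 17.5% with spike-ins and 29.998% with deposited TPM. Relative to the median of all genes the medians were -0.35, -0.41, -0.15 and 0.25, which scaling by library leaves as they are. Targets of growth pathways sit at high levels, where all genes leaned below 0 as given above. The part of that lean, of the mix of tissues or of Mycn and Myc in these differences was not tested.

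**Figure D5:**
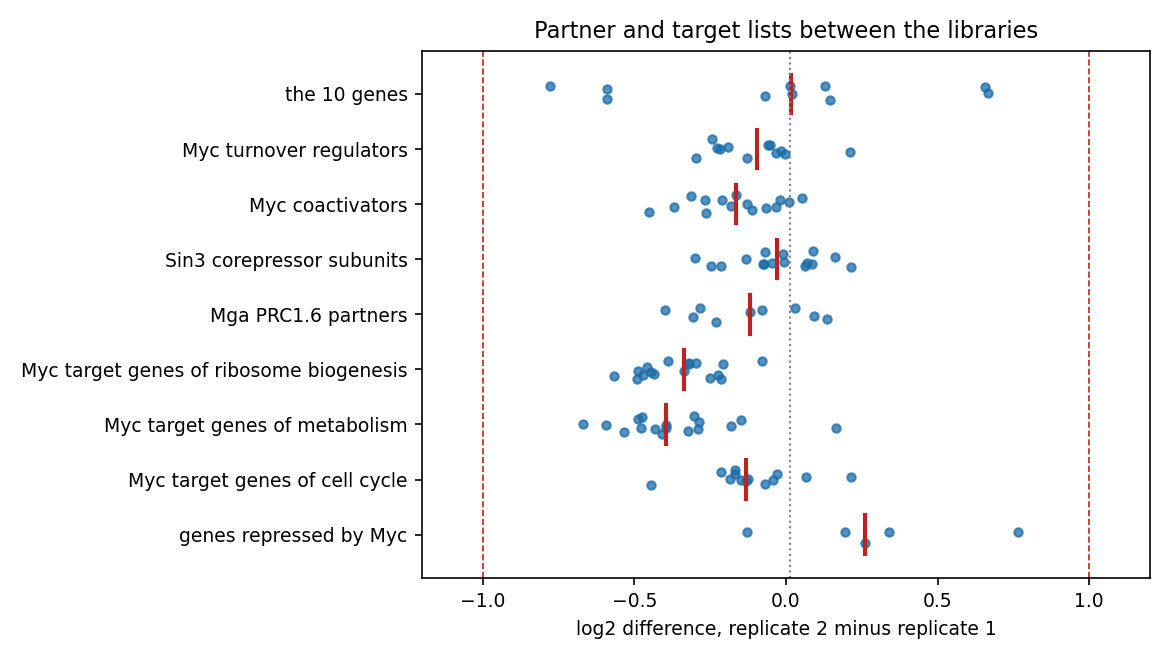
Log2 difference between the libraries, replicate 2 minus replicate 1, of the 10 genes and of the genes averaging 10 or more counts in the partner and target lists. Points are genes with a small vertical scatter, red bars are list medians, the dotted line is the median of all genes (0.01) and dashed lines mark 2-fold. Ribosome biogenesis and metabolic targets lie left of the dotted line in all but 1 case, and the 10 genes spread to both sides.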

How the data were processed

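Values are those the authors deposited: gene and transcript tables of expected counts, TPM, posterior mean TPM, TPM interval bounds (a score on the TPM scale, as deposited, of unstated level) and the percent of a gene's TPM per transcript. Per the sample text files, each library was quantified alone from transcriptome alignments on mm10 with GENCODE M4. The aligner, the quantifier and any use of strand are not stated there. Per the labels' protocols, RNA was extracted with Ambion mirVana and a SMARTer Ultra Low kit manual is linked. Rows that name no Ensembl gene (96 spike-ins, and 26249 other rows with 0.000170% and 0.000134% of counts) stayed out of TMM scaling.

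Symbols came from GENCODE M21 by identifier without version (42462 of 43346 Ensembl rows). Expected counts were rounded for TMM in edgeR 4.0.16 (R 4.3.3), with DESeq2 1.42.0 size factors as an alternative; other steps used Python 3.11.15, pandas 2.3.3, scipy 1.17.1 and matplotlib 3.10.9. Counting intervals were tested on simulated data drawn with counting error alone, so that test does not reach read assignment or differences between pools. The smallest p that an exact sign-flip test (two-sided) allows for 2 libraries is 0.5, so none is given. Replicates are separate pools, and members and gene lists were chosen with earlier results of these data known. The rule for named genes took all 10 genes, the other network genes, the 3 highest and the lowest gene of each partner or target list and any 2-fold different, and transcripts at 10% or more. Comparisons with genes of like level, the level bands, Prelid1, Psmc3ip and Gm10197 were added after values were seen. So were the named muscle and ectoderm markers, Acan and the coding-only level of Mlx. Mycnos, also listed, was matched to no row.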

Additional observations from a re-analysis of the deposited data

How the results depend on the processing

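All 10 genes remained expressed with thresholds of 0.5 TPM, with posterior mean TPM and in either library alone, and 9 did at 5 TPM. Of 45 pairs, 38 differed, against 41 without replicate 1, 42 without replicate 2 and 33 with posterior mean TPM at 1.5-fold in both libraries. The count of genes called between libraries was 0 at 2-fold under the 6 scalings, without a count filter and at a mean count of 100 or more, 5 at 1.5-fold with TMM and 7 where the counting interval excluded equality. The 5 became 3 with deposited TPM and 2 with spike-in scaling, and among genes repressed by Myc the 2-fold count went from 0 to 1 with spike-ins. The log2 ratio of the Myc sum to Max was 4.82 (4.78 without replicate 1 and 4.85 without replicate 2), 5.20 with expected counts not divided by length or 5.18 with Bmyc added, an addition made after seeing the data, as were the counts by scaling and the sum of identical Myc models. The log2 ratio of the Myc sum to the repressors ran from 1.76 without replicate 1 to 2.85 without replicate 2, and was 1.56 with Mga and Mxd1 added. Among neighbours, the calls of Mlx above Mga (log2 0.69) and of Max above Mnt (0.80) were lost with posterior mean TPM at 1.5-fold. No paired analysis was possible because the labels give a single group. Low counts limit Max-202, Myc-205, Myc-206, Mlxipl, Pvt1, Gm10197, Acan, Matn1 and Cdkn2b.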

Other observations

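The Mondo partners of Mlx differed in the forms read. Mlxip was held by 2 coding transcripts, Mlxip-202 with 61.3% and 63.2% of the gene in replicates 1 and 2 and Mlxip-201 with 35.5% and 36.8%. For Mlxipl, which encodes the carbohydrate response factor of liver and fat, transcripts annotated as protein-coding held only 13.9% and 22.4%. The retained-intron form Mlxipl-205 held 63.1% and 50.6%. These shares rest on 117 and 181 counts over the whole gene.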
